A study of Mus musculus with 30 samples.

Results

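The 33 collagen genes described here are the protein-coding genes named Col, a number, a and a number that had a mean of at least 5 normalized counts over 30 mouse ovaries. They were taken from 44 genes with such a name in a table of 50600 genes, of which 14646 reached the same mean. The 11 collagen genes below it were Col4a3, Col17a1, Col25a1, Col10a1, Col9a3, Col24a1, Col11a2, Col19a1, Col9a1, Col2a1 and Col28a1. At the limit, Col4a3 had a mean of 4.95 and Col17a1 of 4.01, while Col5a3 had 5.49 and Col26a1 5.73. The study compared the ovaries of 7 DSS mice with those of 8 control mice. DSS mice were C57BL/6 females that drank 3% dextran sulfate sodium, a polysaccharide that injures the colon and is used to produce colitis, for 7 days before sexual maturity. Control mice were C57BL/6 littermates, and the ovaries of all mice were taken once they were sexually mature. The left and the right ovary of each mouse were sequenced apart by CEL-Seq, which counts the 3′ ends of polyadenylated transcripts, and each mouse is called by its group and its label number, such as DSS_10.4. The ages and the cycle stages of the mice are not given in the sources used here.

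Collagens are extracellular proteins in which 3 chains wind into a triple helix. Fibrillar collagens build the fibres of the stroma, type IV chains form the sheet of the basement membranes around follicles and vessels, type VI chains form beaded filaments beside cells, and the FACIT group attaches to fibres. In the ovary, fibrous stroma and the follicular basement membrane are both remodelled as follicles grow, rupture and turn into corpora lutea. The chains are hydroxylated and folded in the endoplasmic reticulum, trimmed outside the cell and then crosslinked by lysyl oxidases.

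The libraries held between 3095386 and 8564770 recovered reads, with a median of 4305814. The summed level of markers of granulosa, theca and oocyte cells lay between 7781 and 25869 normalized counts over the 30 libraries. In 7 ovaries Ovgp1, a secreted protein of the oviduct, exceeded 5000 normalized counts. These were the left ovaries of DSS_10.4, DSS_11.2 and DSS_11.1, the right ovary of DSS_11.1, and the right ovaries of control_16.9, control_13.4 and control_10.5. The left ovary of DSS_11.2 stood furthest apart, with 66716 counts of Ovgp1, a summed smooth muscle level of 24888 and the lowest summed ovary marker level. Ovaries are bulk tissue, so fewer cells of a type and less RNA per cell cannot be told apart. Left ovaries carry odd and right ovaries even library numbers, so a library batch that follows these numbers and the side cannot be told apart.

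Several collagen genes lie beside each other in the genome, and 2 of these sites are shown because the paired chains differ widely in how equal their levels were. Col4a1 and Col4a2, the main chains of basement membranes, start head to head on chromosome 8, and their annotated genes overlap by 22 bases. The windows below, from 250 bases before to 50 bases after each start, were taken from RefSeq (GRCm38.p6) and lie at chr8:11312777-11313076 on the minus strand and chr8:11312555-11312854 on the plus strand. Capitals mark the 78 bases that both windows share.
Col4a1: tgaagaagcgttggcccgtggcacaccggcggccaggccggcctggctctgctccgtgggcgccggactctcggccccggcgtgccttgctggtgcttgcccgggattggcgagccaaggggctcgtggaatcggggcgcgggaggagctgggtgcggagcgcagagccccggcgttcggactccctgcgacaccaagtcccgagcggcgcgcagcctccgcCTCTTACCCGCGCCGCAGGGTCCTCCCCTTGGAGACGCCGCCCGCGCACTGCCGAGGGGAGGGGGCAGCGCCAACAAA
Col4a2: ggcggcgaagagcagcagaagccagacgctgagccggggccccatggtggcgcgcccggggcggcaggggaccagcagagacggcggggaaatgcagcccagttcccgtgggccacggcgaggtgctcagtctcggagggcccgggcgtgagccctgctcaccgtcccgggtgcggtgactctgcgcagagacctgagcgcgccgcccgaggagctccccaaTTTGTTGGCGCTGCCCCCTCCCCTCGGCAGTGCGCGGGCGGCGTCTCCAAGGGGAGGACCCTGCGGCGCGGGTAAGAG
Col4a4, a chain known from the basement membrane of the kidney glomerulus, starts 71 bases from its partner Col4a3 on chromosome 1. Its window lies at chr1:82586800-82587099 on the minus strand, and capitals mark the bases between the annotated starts of Col4a4 and Col4a3.
Col4a4: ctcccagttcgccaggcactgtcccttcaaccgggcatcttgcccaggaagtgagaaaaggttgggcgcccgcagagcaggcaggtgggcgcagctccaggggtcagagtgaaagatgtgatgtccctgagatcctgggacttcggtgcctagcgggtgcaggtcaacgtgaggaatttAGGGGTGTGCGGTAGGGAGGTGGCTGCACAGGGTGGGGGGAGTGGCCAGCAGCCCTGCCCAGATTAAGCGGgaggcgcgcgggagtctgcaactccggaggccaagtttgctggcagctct
Across all collagen members with a RefSeq window, 29 windows of 27 genes, the letters CCAAT or ATTGG occurred in 34.5%, against 37.4% of all 32851 windows. The GC box GGGCGG or CCGCCC occurred in 72.4% of the collagen windows and in 35.7% of all windows, and TATAAA or TTTATA in 6.9% and 13.6%. The Col4a1 window held 1 CCAAT match and 1 GC box, the Col4a2 window 1 and 3, and the Col4a4 window neither motif. These matches describe the windows only.

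The collagen message of the ovary was dominated by type III and type I chains. The 33 members summed to 19490 ± 3263 normalized counts per mouse (SD, n = 15 mice, mean of both ovaries), which was between 0.354% and 0.757% of the counts of a library. Fibrillar collagens made up 72.3% of that sum with 14150 ± 2854, basement membrane collagens 12.0% with 2313 ± 329, and beaded filament collagens 11.19% with 2152 ± 171 (SD, n = 15 mice). The FACIT group summed to 409.5 ± 60.5, the multiplexins to 289.7 ± 35.6, the short chain collagens to 138.4 ± 42.7 and the transmembrane collagens to 21.9 ± 8.5 (SD, n = 15 mice). A 3′ tag comes from the end of a transcript and its count does not grow with length, so these levels were not divided by length. Whether repeated reads of the same molecule were merged is not given in the sources used here. How well each 3′ end was captured was not tested.

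**Figure D1:**
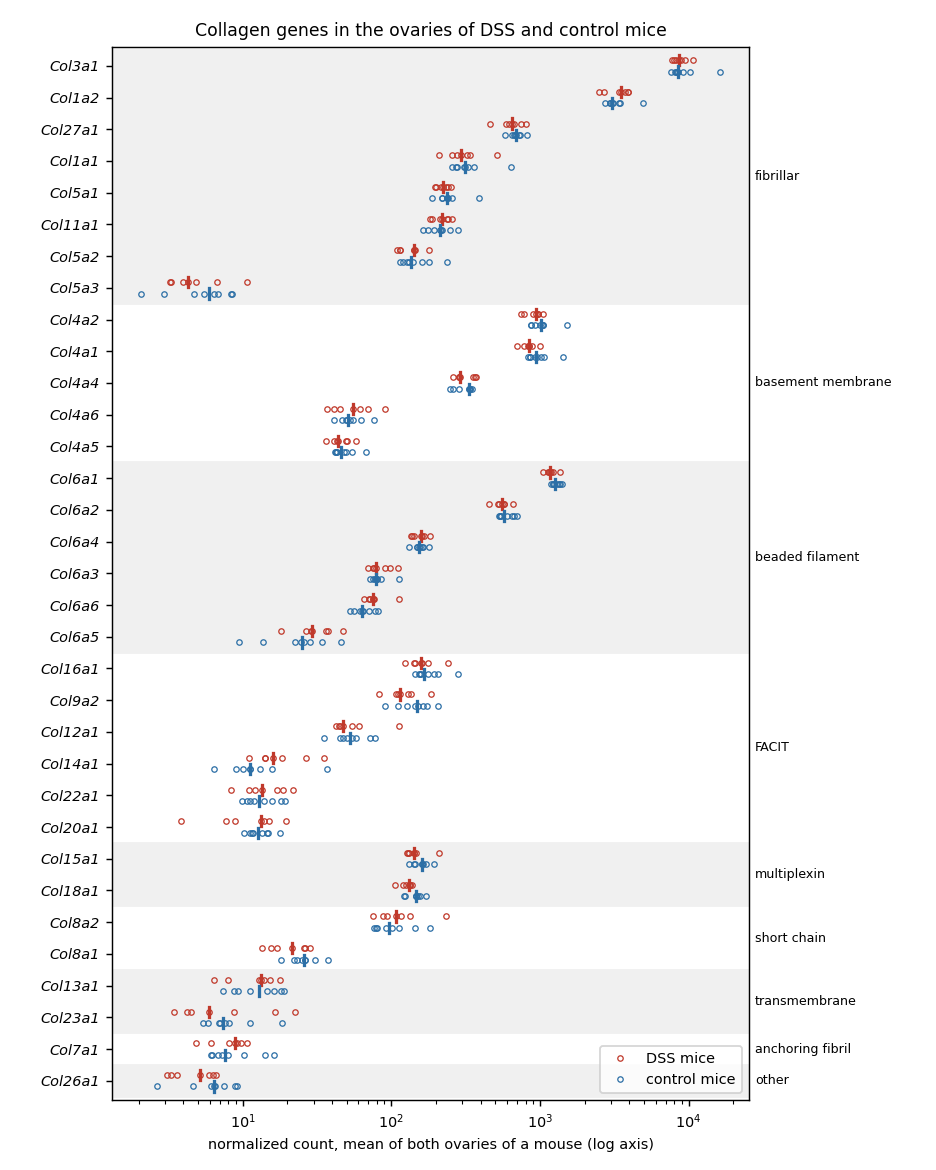
Normalized count of each of the 33 collagen genes (log axis), grouped by collagen class; each circle is 1 mouse (mean of both ovaries), DSS mice above control mice, and the bar is the group median. Col3a1 and Col1a2 stand above all other members, and the DSS and control circles overlap in every gene.

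Among fibrillar collagens, Col3a1, the chain of type III fibres in soft tissue, averaged 9197 normalized counts over the 30 libraries. Col1a2, which encodes the second chain of type I collagen, averaged 3348, and Col27a1, a fibrillar collagen best known from cartilage, averaged 672. The order below them was Col1a1 at 330.5, Col5a1 at 237, Col11a1 at 217, Col5a2 at 144 and Col5a3 at 5.49. A type I molecule is known to take more chains from Col1a1 than from Col1a2, whereas Col1a2 tags exceeded Col1a1 tags 10.52 ± 1.69-fold (SD, n = 15 mice) and did so in all 30 libraries. The 8 fibrillar members thus ran from 5.49 to 9197.

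In basement membranes, Col4a2 averaged 975 and Col4a1 922, and the ratio of Col4a2 to Col4a1 was 1.06 ± 0.06 over 15 mice, within 0.964 to 1.18. The head to head pair Col4a4 and Col4a3 was far from equal, since Col4a4 averaged 313 while Col4a3 averaged 4.95, a ratio of between 28.3 and 327.6 per mouse. Col4a6 averaged 55.7 and Col4a5, its head to head neighbour on chromosome X with 1308 bases between the starts, 47.6, a ratio of 1.18 ± 0.26 (SD, n = 15 mice). Of the beaded filament chains, Col6a1 averaged 1237, Col6a2 576 and Col6a3, the long chain of type VI collagen, 84.2. Col6a4, Col6a6 and Col6a5, which lie in a row on chromosome 9, averaged 155, 71.6 and 28.6. Col6a1 exceeded Col6a2, its neighbour on chromosome 10, 2.16 ± 0.14-fold (SD, n = 15 mice).

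Among the FACIT collagens, Col16a1 led with 174, followed by Col9a2, a chain of the cartilage type IX collagen, with 135 and Col12a1 with 56.5. Col14a1, Col22a1 and Col20a1 were between 12.5 and 16.7. The defining cartilage chain Col2a1 was listed at 0 in 26 of 30 libraries, and Col9a1 and Col9a3, the partners of Col9a2, had means of 0.648 and 2.91. The multiplexins Col15a1 and Col18a1, proteoglycan collagens of vessel and epithelial basement membranes, averaged 153 and 137. Col8a2, a short chain collagen known from the cornea, averaged 115, and its partner Col8a1 averaged 23.9. The transmembrane collagens Col13a1 and Col23a1 averaged 12.8 and 9.11, Col7a1, which builds the anchoring fibrils under stratified epithelium, 8.81, and Col26a1 5.73.

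Levels of 22 of the 33 members are uncertain to the extent that another annotated gene overlaps them, on the same or the other strand. The strand setting of the counting is not given in the sources used here, and it bears only on overlaps with the other strand. In 3 of the 22 members the overlap reached the last 1000 bases, where 3′ tags fall. These were Col4a1 with Gm15418, Col6a6 with Pik3r4 and Col18a1 with Slc19a1.

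The central comparison asked whether DSS before maturity was followed by a different collagen level in the mature ovary. None of the 33 members passed the threshold, an adjusted p of 0.05 (limma, two-sided, Benjamini-Hochberg over 14646 genes), and none of all genes did (0%). At an unadjusted p under 0.05 there were 3 members, all lower in DSS mice, against 7.98% of all genes in either direction and 3.17% lower. edgeR's quasi-likelihood test and DESeq2 on the recovered reads also called 0 members. The 3 members were Col18a1, Col4a1 and Col6a1. Of the 33 members, 22 were lower in DSS mice, with a median log2 difference of -0.10, against 49.4% of all genes lower and a median of 0.00. That count was 28 without DSS_11.2 and 18 without DSS_11.1. The levels of DSS and control mice overlapped in all 33 members, and 0.0819% of all genes had groups that did not overlap.

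**Figure D2:**
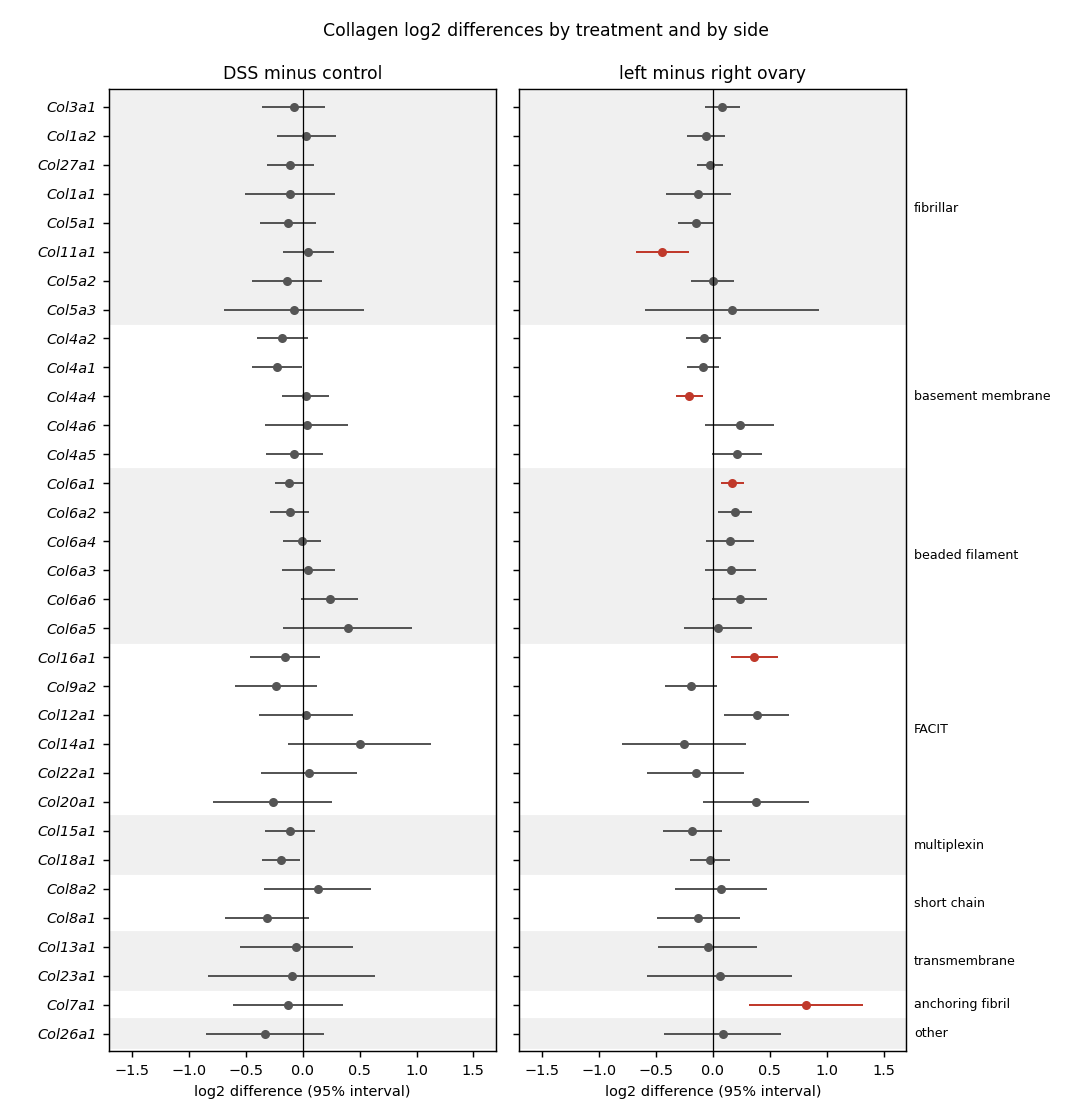
Log2 difference with its 95% interval (limma) for each collagen gene, DSS minus control on the left and left minus right ovary on the right; red marks an adjusted p under 0.05. No member is red for DSS minus control, and Col11a1, Col4a4, Col6a1, Col16a1 and Col7a1 are red for left minus right.

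Col18a1, whose tail is the source of the angiogenesis inhibitor endostatin, ranged from 106 to 137.5 with a median of 132 in DSS mice, against 123 to 170.2 with a median of 147 in control mice. All 7 DSS mice lay below the control median, but the ranges overlapped. The log2 difference was -0.19 (SE 0.08, unadjusted p = 0.0222, adjusted p = 0.565, limma). Its last bases overlap Slc19a1, so reads of the 2 genes may be mixed.

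Col4a1 ranged from 699 to 1006 with a median of 841 in DSS mice, against 829.5 to 1420.4 with a median of 945 in control mice. 6 of 7 DSS mice lay below the control median, and the ranges overlapped. Their log2 difference was -0.22 (SE 0.10, unadjusted p = 0.0363, adjusted p = 0.591, limma). Col4a2, its partner, had a log2 difference of -0.18 (SE 0.10, adjusted p = 0.681, limma). Both were highest in the same control mouse, control_15.3.

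Col6a1, a core chain of type VI collagen, ranged from 1049 to 1358 with a median of 1170.2 in DSS mice, against 1182 to 1412 with a median of 1269 in control mice. 6 of 7 DSS mice lay below the control median. This gave a log2 difference of -0.12 (SE 0.05, unadjusted p = 0.0363, adjusted p = 0.591, limma). Col8a1, a short chain collagen of vessel walls, ranged from 13.46 to 28.35 in DSS mice and from 18.2 to 37.4 in control mice, with a log2 difference of -0.32 (SE 0.17, adjusted p = 0.662, limma).

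On the other side, Col6a6 ranged from 65.1 to 112.5 with a median of 75.0 in DSS mice, against 52.4 to 81.5 with a median of 64.0 in control mice. None of the 7 DSS mice lay below the control median, and the log2 difference was 0.24 (SE 0.11, unadjusted p = 0.0531, adjusted p = 0.630, limma). Col14a1, a FACIT collagen of fibroblasts, ranged from 11.06 to 35.3 with a median of 16.1 in DSS mice, against 6.39 to 37.0 with a median of 11.3 in control mice. Its log2 difference was 0.50 (SE 0.29, adjusted p = 0.685, limma). Col6a5 had a log2 difference of 0.39 and Col8a2 of 0.13, and Col8a2 turned to -0.04 without DSS_11.2 (adjusted p = 0.979, limma).

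The most abundant members differed by less than the spread between mice. Col3a1 averaged 8813 ± 1000 in DSS mice and 9534 ± 2816 in control mice (SD, n = 7 and 8), and its log2 difference of -0.08 had a 95% interval from -0.35 to 0.19. Col1a2 averaged 3382 ± 564 in DSS mice and 3318 ± 685 in control mice, with an interval from -0.22 to 0.28. Their sum with all other members was 18836 ± 1833 in DSS mice and 20061 ± 4197 in control mice, and 18626 ± 1148 in control mice without control_15.3 (SD, n = 7, 8 and 7).

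Markers of other tissue lay unevenly over the same mice, although none of them passed the threshold for DSS against control. All 7 tested oviduct markers were higher in DSS mice, with a summed level from 325 to 34730 in DSS mice, against 191 to 21597 in control mice. All 8 fat markers were higher as well, from 530.4 to 6007 in DSS mice and from 208 to 4068 in control mice, and so were all 6 of smooth muscle, from 3285 to 14146 in DSS mice and from 3158.5 to 8887 in control mice. All 8 keratinocyte markers were lower, from 92.9 to 3712 in DSS mice and from 211 to 3305 in control mice. Surface epithelium, with 5 of 7 markers higher, fibroblasts with 5 of 6, cartilage with 0 of 2 and the ovary with 3 of 8 made up the remaining lists. The part of these tissues in the collagen levels was not tested.

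Genes that process, trim, crosslink, bind or sense collagen were read from a list of 45, of which 35 reached a mean of 5. None passed the threshold for DSS against control. Of the 16 tested genes of hydroxylation and folding, 13 were lower in DSS mice, as were all 4 lysyl oxidases and the 3 genes of propeptide trimming. Without control_15.3 the lower counts were 11 of 16, 2 of 4 and 3 of 3. Bmp1, the protease that removes the C-terminal propeptide of fibrillar collagens, ranged from 151 to 162 with a median of 153 in DSS mice, against 157 to 190.3 with a median of 171 in control mice. All 7 DSS mice lay below the control median, with a log2 difference of -0.14 (SE 0.05, unadjusted p = 0.00954, adjusted p = 0.501, limma).

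Ppib, a prolyl isomerase of collagen folding, had a log2 difference of -0.08 and Plod1, a lysyl hydroxylase, of -0.14. Adamts2, which removes N-terminal propeptides, had -0.17, and the crosslinking enzymes Loxl3 and Loxl2 had -0.27 and -0.17. Dcn and Tnxb, which bind fibrils, had 0.21 and 0.20, and Dcn turned to -0.04 without the ovaries high in Ovgp1. All 6 tested receptors were higher in DSS mice, and 4 of 6 without DSS_11.2. Lair1, an inhibitory collagen receptor of leukocytes, ranged from 12.6 to 19.7 with a median of 16.1 in DSS mice, against 5.97 to 18.5 with a median of 12.5 in control mice. Its log2 difference was 0.39 (SE 0.18, unadjusted p = 0.0476, adjusted p = 0.616, limma), and that of the collagen-binding integrin Itga11 was 0.18.

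Between the 2 ovaries of a mouse, 5 of the 33 members passed the threshold, against 10.2% of all genes (limma with the mouse as a block). Col16a1, Col6a1 and Col7a1 were higher in left ovaries, against 4.56% of all genes, and Col11a1 and Col4a4 were lower in left ovaries, against 5.6% of all genes. These 5 are 15.2% of the members, and the difference between that share and the background was not tested. Of all members 17 were higher and 16 lower in left ovaries, with a median log2 difference of 0.05, and 48.5% of all genes were lower. edgeR with the same block called the same 5 members.

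**Figure D3:**
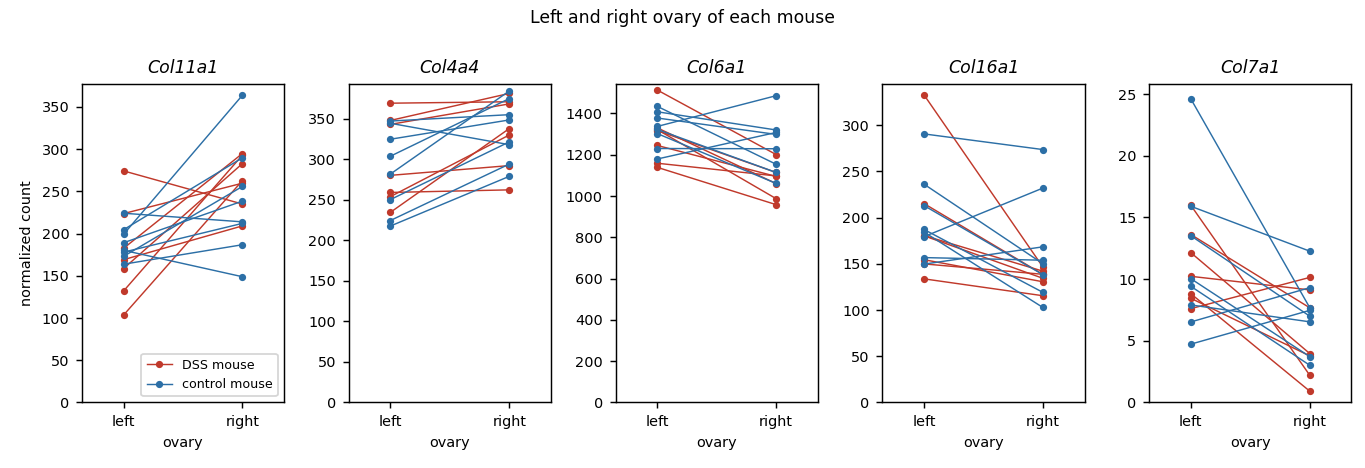
Normalized counts in the left and the right ovary of each mouse for the 5 collagen genes that passed the threshold; a line joins the ovaries of 1 mouse, red for DSS and blue for control. Lines of Col11a1 and Col4a4 mostly climb towards the right ovary, and lines of Col6a1, Col16a1 and Col7a1 mostly climb towards the left ovary.

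Col11a1, a minor fibrillar collagen known to set fibril diameter in cartilage, lies at chr3:114030540-114221018 in the deposited coordinates (GRCm38.p5). It ranged from 103 to 274.3 with a median of 180.2 in left ovaries, against 149 to 364 with a median of 255.8 in right ovaries. It was lower in the left ovary of 12 of 15 mice, and the exceptions were DSS_15.1, control_10.5 and control_15.3. The log2 difference was -0.44 (SE 0.11, adjusted p = 0.0105, limma).

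Col4a4, at chr1:82448123-82586849, ranged from 217 to 369 with a median of 282 in left ovaries, against 262.1 to 384 with a median of 338 in right ovaries. It was lower in the left ovary of 14 of 15 mice, the exception being control_10.5. The log2 difference was -0.21 (SE 0.05, adjusted p = 0.0152, limma). For Col4a1 and Col4a2 the log2 differences were -0.09 and -0.08 (adjusted p = 0.450 and 0.519, limma).

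Col16a1, a FACIT collagen that binds integrins, lies at chr4:130047840-130099583 and ranged from 134 to 332.6 with a median of 180.5 in left ovaries, against 103 to 273.5 with a median of 139 in right ovaries. It was higher in the left ovary of 13 of 15 mice, among them all 7 DSS mice. Across mice the log2 difference was 0.36 (SE 0.09, adjusted p = 0.0162, limma). Col12a1, which is also a FACIT collagen and was higher in the left ovary of 12 of 15 mice, had a log2 difference of 0.38 and missed the threshold (SE 0.13, adjusted p = 0.0738, limma).

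Col6a1, at chr10:76708492-76726168, ranged from 1139 to 1514 with a median of 1322 in left ovaries, against 958.5 to 1486 with a median of 1114 in right ovaries. It was higher in the left ovary of 13 of 15 mice. Across mice the log2 difference was 0.17 (SE 0.05, adjusted p = 0.0205, limma). The log2 differences of the other 5 beaded filament members were between 0.05 and 0.24, all higher in left ovaries and none past the threshold. Nearest to it was Col6a2 at 0.19 (SE 0.07, adjusted p = 0.0715, limma), which passed, as did Col12a1, without control_10.5 or without control_15.4.

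Col7a1, at chr9:108953586-108985175, ranged from 4.73 to 24.6 with a median of 10.04 in left ovaries, against 0.92 to 12.3 with a median of 7.00 in right ovaries. It was higher in the left ovary of 12 of 15 mice. The log2 difference was 0.82 (SE 0.24, adjusted p = 0.0316, limma), at a level of few reads per library. Its call was lost without DSS_10.4, DSS_15.1, control_11.4, control_13.4 or control_15.4, where the adjusted p lay between 0.0527 and 0.0634, and with no filter on low genes (adjusted p = 0.0749, limma).

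Keratinocyte markers moved with the side. Of 8 tested keratinocyte markers, such as Krt5 and Krt14, 7 were higher in left ovaries and past the threshold, and their summed level ranged from 136 to 6537 in left ovaries, against 49.6 to 887 in right ovaries. The 3 left ovaries with the highest sums, DSS_16.3 at 6537, control_11.4 at 6040.3 and control_13.4 at 6022, had 13.6, 10.04 and 24.6 counts of Col7a1, a product of keratinocytes. The left ovary of DSS_11.2 had 15.99 counts of Col7a1 with a keratinocyte sum of 254.8. Upk1b, 1 of 7 markers of surface epithelium, and Lum, 1 of 6 of fibroblasts, were also past the threshold. Both were higher in left ovaries, against 4.56% of all genes. The call of Lum was lost without any 1 of 11 mice, as given below with the genes around collagen. Of the ovary markers 1 of 8, Cyp17a1, was past the threshold and lower in left ovaries, against 5.6% of all genes. None of the 7 oviduct, 8 fat, 6 smooth muscle and 2 cartilage markers tested passed the threshold between sides. The part of these tissues in the collagen differences was not tested. Without the ovaries high in Ovgp1, 9 mice with both ovaries remained, and 2 of 32 tested members, Col16a1 and Col4a4, passed the threshold, which is 6.25% of them against 5.12% of all genes. Col11a1, Col6a1 and Col7a1 kept their direction there, with adjusted p of 0.0678, 0.154 and 0.253 (limma).

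Col17a1, a keratinocyte collagen whose mean was below 5, was singled out after its values were seen. It ranged from 0 to 21.6 with a median of 2.17 in left ovaries, against 0 to 3.72 with a median of 0.96 in right ovaries. In a fit with no filter on low genes its log2 difference was 1.33 (adjusted p = 0.0144, limma), and it was higher in the left ovary of 12 of 15 mice.

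Of the 35 tested genes around collagen, 3 passed the threshold, all higher in left ovaries. That is 8.57% of the list, against 10.2% of all genes in either direction and 4.56% higher. P4hb, the shared subunit of prolyl hydroxylase, ranged from 599 to 770.5 in left ovaries and from 505 to 777 in right ovaries, and was higher on the left in 14 of 15 mice (log2 difference 0.20, SE 0.04, adjusted p = 0.00637, limma). P4ha2, a catalytic subunit of the same enzyme, ranged from 15.9 to 67.2 in left ovaries and from 8.68 to 37.7 in right ovaries (log2 difference 0.55, SE 0.15, adjusted p = 0.0249, limma). The call of P4ha2 was lost without control_11.4 (adjusted p = 0.0502, limma) and with no filter on low genes (adjusted p = 0.0521, limma). Without the ovaries high in Ovgp1 the adjusted p was 0.0997 for P4hb, 0.118 for P4ha2 and 0.149 for Lum (limma).

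Lum, a keratan sulfate proteoglycan on collagen fibrils, had a log2 difference of 0.36 (SE 0.11, adjusted p = 0.0460, limma), a call close to the threshold. With 1 mouse left out the log2 difference stayed between 0.27 and 0.42. The call was lost without any 1 of 11 mice (adjusted p between 0.0509 and 0.0956, limma), and the mice whose omission kept it were DSS_11.2, DSS_15.1, control_10.5 and control_15.4. It was also lost with edgeR's quasi-likelihood test (adjusted p = 0.0552) and with no filter on low genes (adjusted p = 0.092, limma). Itgb1, the beta chain of collagen-binding integrins, had a log2 difference of -0.17 (adjusted p = 0.0577, limma) and Ddr1, a collagen receptor kinase, of -0.19. Itgb1 passed with TMM factors (adjusted p = 0.049, limma), with a mean of at least 20 (0.0461), without the mouse block (0.0343) and without control_15.4 (0.0127). Ddr1 passed without DSS_11.2 (adjusted p = 0.0406, limma). In the other groups, Adamts2 had -0.16, Bmp1 0.14, Loxl3 0.35 and Loxl2 0.02, none past the threshold, and Loxl3 passed without DSS_13.2 (adjusted p = 0.0472, limma).

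Whether the DSS effect differed between the sides was tested on the difference between left and right ovary of each mouse. None of the 33 members passed the threshold, and neither did any of all genes (0%), while 1 member, against 8.52% of all genes, had an unadjusted p under 0.05. That was Col3a1, where the left minus right difference was larger in DSS mice by a log2 of 0.34 (SE 0.12, unadjusted p = 0.0103, adjusted p = 0.542, limma). Its level was higher in the left ovary of 5 of 7 DSS mice and of 3 of 8 control mice. Next by p were Col5a3 at 1.351 (SE 0.68, adjusted p = 0.598, limma) and Col8a2 at 0.70 (SE 0.35, adjusted p = 0.603, limma). The same difference was above 0 in all 7 oviduct and all 6 smooth muscle markers, with medians of 3.33 and 1.04, and below 0 in all 8 ovary markers, with a median of -0.53, none past the threshold. The part of these tissues in the collagen values was not tested. Among the genes around collagen, Serpinh1, the collagen chaperone, had a log2 difference of -0.28 and Colgalt2, which glycosylates collagen, of -0.53. The log2 differences of Loxl1 and Lox were 0.37 and 0.33, those of Fmod and Dcn 0.64 and 0.35, those of Ddr1 and the integrin chain Itga1 0.46 and 0.31, and those of Bmp1 and Adamts2 0.19 and -0.13. None of these 10 genes passed the threshold.

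Single mice stood apart in their collagen levels. The collagen sum of control_15.3 was 30110 normalized counts, 31059 in its left and 29161 in its right ovary, while the other 14 mice lay between 16119 and 21852. It was the highest of all 15 mice for 11 members and the lowest for 5. The share of all genes for which control_15.3 was the highest or the lowest mouse was not determined. Col3a1 stood at 16235, which is 1.95 times the median of the other 7 control mice. Col1a1 stood at 636.5 or 2.06 times, Col5a2 at 236 or 1.799 times, Col16a1 at 282 or 1.77 times and Col4a1 at 1420.4 or 1.53 times that median.

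Other members did not follow. Of the type IV chains, Col4a4 stood at 248 in control_15.3, below every other mouse and 0.746 times the median of the other control mice, and of the fibrillar chains Col11a1 at 219 was within their range. Among the beaded filament chains, Col6a2 at 701 was the highest of all mice at 1.28 times that median, Col6a1 stood at 1.097 times and Col6a3 at 0.983 times, and Col6a4, Col6a6 and Col6a5 were the lowest of all mice at 0.851, 0.808 and 0.364 times. Of the 35 genes around collagen, 20 were above every other control mouse, among them all 4 tested lysyl oxidases and 10 of 16 genes of hydroxylation and folding. For all genes that share was not determined, so these counts are not shown to be particular to collagen. Lox, the founding lysyl oxidase, was 98.2 in control_15.3 and between 30.7 and 41.8 in the other control mice. Ovgp1 was 216 and 133 in its left and right ovary. Its fibroblast marker sums were 4929 and 4759, of which Dcn gave 3407 and 3153. These sums lay within the range of the other control ovaries, 3610 to 8512. The upper end was the right ovary of control_10.5, and the next highest was its left ovary at 5275. The summed smooth muscle markers of control_15.3 were 4372 and 4936. Among the other control ovaries only the right ovary of control_10.5, at 13461, was higher. The summed cartilage markers of control_15.3, nearly all of them Cnmd, were 232 and 244.6 in the left and right ovary. Their mean of 238 was the highest of all 15 mice. The part of other cell types in its collagen levels was not tested.

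**Figure D4:**
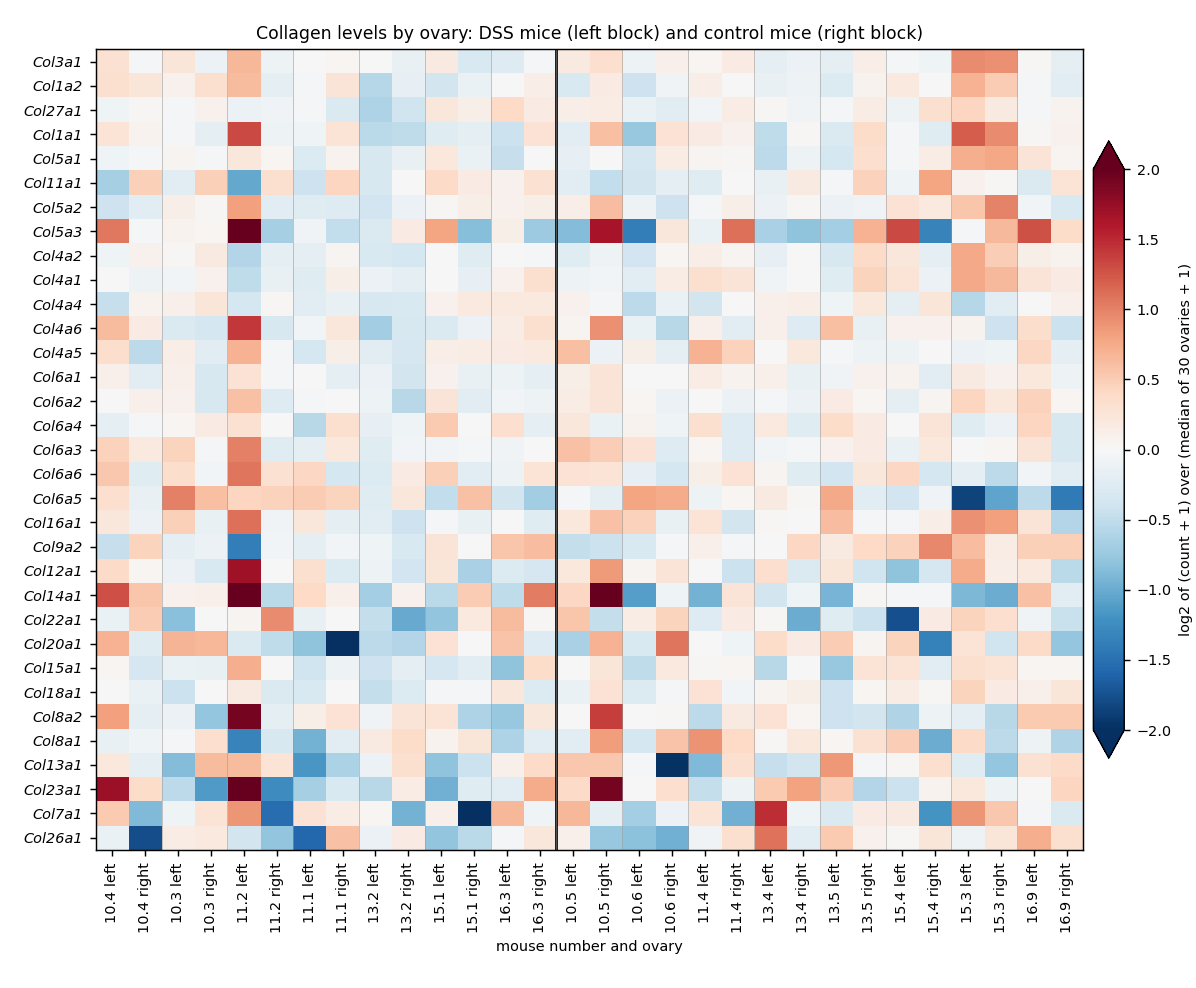
Log2 ratio of each collagen gene in each ovary to its median over the 30 ovaries, with 1 added to both; DSS mice are the left block and control mice the right block, with the left ovary of each mouse first. Both ovaries of control_15.3 are high for Col3a1, Col1a2, Col1a1, Col5a1, Col5a2, Col4a1 and Col4a2 and not for Col4a4. For Col8a2, Col14a1 and Col23a1, the left ovary of DSS_11.2 and the right ovary of control_10.5 are highest, and the left ovary of DSS_10.4 comes next. Neither the left ovary of DSS_11.2 nor the right ovary of control_10.5 is high for Col4a1 or Col4a2.

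A second pattern lay in 1 ovary of a mouse. The left ovary of DSS_11.2 had the highest summed markers of the 30 libraries for oviduct at 68441, smooth muscle at 24888, fibroblasts at 12812, fat at 11572 and surface epithelium at 1215, and the lowest for the ovary at 7781. It was the highest of the 30 libraries for 13 members and the lowest for 5. The share of all genes with their highest or lowest value in this ovary was not determined. In it Col12a1 was 172, Col8a2 381, Col14a1 61.8, Col1a1 745 and Col4a6 141, against 52.3, 89.1, 8.83, 280.4 and 41.2 in the right ovary of the same mouse. Its type IV chains Col4a1 and Col4a2 were 614 and 650.4, the lowest of all libraries, and so were its Col11a1 at 103, its Col9a2 at 46.9 and its Col8a1 at 8.53.

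In control_10.5 the left ovary had 100.01 counts of Col8a2, 18.0 of Col14a1 and 9.01 of Col23a1, against 264, 56.0 and 28.0 in its right ovary, which held 41925 counts of Ovgp1. The summed smooth muscle markers were 4312 in that left ovary and 13461 in the right. Fibroblast and surface epithelium markers summed to 5275 and 408 in the left ovary, against 8512 and 857.5 in the right ovary. In DSS_10.4 the left ovary, with 25161 counts of Ovgp1, had 178.8 counts of Col8a2, 33.85 of Col14a1 and 24.3 of Col23a1. Its right ovary, with 646 counts of Ovgp1, had 88.38, 19.86 and 8.94. The summed smooth muscle markers of DSS_10.4 were 9706 in the left ovary and 3956 in the right. The right ovary of control_16.9 held 9169 counts of Ovgp1. In that mouse Col8a2 was 144.73 in both ovaries, while Col14a1 was lower and Col23a1 higher in the right ovary. In control_13.4 the left ovary, with 264 counts of Ovgp1, had 123 counts of Col8a2, 10.07 of Col14a1 and 3566 of the summed smooth muscle markers, against 103.8, 12.5 and 3637 in its right ovary, which held 18628 counts of Ovgp1. The part of these tissues in the collagen levels of single ovaries was not tested.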

How the data were processed

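RNA of 30 ovaries was measured by CEL-Seq with 3 primers per sample, per the labels' protocols, and 1 column per ovary was deposited. The submitters' processing notes name GRCm38.p5 and the tools TopHat, HTSeq and DESeq2. Their versions, strand setting, handling of molecular identifiers and annotation are not given in the sources used here. The authors deposited a signal per gene, a normalized count written to 2 decimals, whose values behave as reads divided by 1 size factor for each library. Dividing by each library's step, between 0.528 and 1.326, returned whole reads for 99.82% to 100% of values within 0.0051.

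DSS and control were compared with limma 3.58.1 (R 4.3.3), two-sided with a mean trend, on log2(mean of both ovaries + 1), left and right ovaries per ovary with the mouse as a block, and the difference between sides on each mouse's left minus right value. Benjamini-Hochberg adjustment ran over 14646 genes, those reaching a mean of 5. The pseudocount of 1 makes the log2 differences of low genes too small. edgeR 4.0.16 and DESeq2 1.42.0 on recovered reads were alternatives, as were other pseudocounts, filters and scalings, left-out mice and left-out ovaries. Ovaries of a mouse are paired by their titles. The correlation of their deviations from the group means had a median of 0.181 over 15 mice and exceeded 0.1 in 10. It was lowest in DSS_13.2 at -0.273, and 7 of 15 left ovaries correlated best with the right ovary of their own mouse. The tests were tested on simulated data. P-values for DSS against control measure the spread of levels between these mice. Those for left against right and for the difference between sides measure the spread of left minus right values between mice.

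Members, gene lists and tests were chosen with earlier results of these data known. Named genes were the 3 highest members of each class, the members past the threshold, otherwise the 4 smallest p in each direction (3 for the side difference), and of each list the genes past the threshold or the 2 smallest p; other named genes were chosen after their values were seen. All 33 members were found in GENCODE M21, and coordinates are as deposited, where the 3′ end lies 300 bases past the annotation for 32 of 33 members. Marker lists covered ovary, oviduct, fat, keratinocytes, smooth muscle, surface epithelium, fibroblasts and cartilage.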

Additional observations from a re-analysis of the deposited data

Results flagged for a closer look

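In 15 of 66 groups, each 1 collagen gene in the DSS or the control mice, the highest mouse lay further from the others than Dixon's test allows at 95%. Chance gives about 1 in 20 such groups if values are normally distributed. That was not tested for these counts, which were not log-transformed, and the genes share their mice. In 7 groups the mouse was control_15.3, with values given as the mean of both ovaries. They were 16234.8 for Col3a1 (others 7620 to 10170.2), 4908.7 for Col1a2 (others 2743 to 3465), 636.5 for Col1a1 (others 257 to 358), 388.6 for Col5a1 (others 188 to 257.5), 1509.7 for Col4a2 (others 864.5 to 1043), 1420.4 for Col4a1 (others 829.5 to 1065) and 282 for Col16a1 (others 143.5 to 206). For each of these genes both ovaries of that mouse lay above the mean of every other control mouse, as with the 16398 counts of Col3a1 in its left and 16072 in its right ovary.

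In 5 groups it was DSS_11.2, with 112 for Col12a1 (others 42.2 to 61.1), 112.5 for Col6a6 (others 65.1 to 76.9), 512.8 for Col1a1 (others 208 to 337), 209 for Col15a1 (others 127 to 146) and 234.8 for Col8a2 (others 75.3 to 134). In 3 groups it was control_10.5, with 36.99 for Col14a1 (others 6.39 to 15.8), 113.5 for Col6a3 (others 71.9 to 84.8) and 18.5 for Col23a1 (others 5.38 to 11.3). The ovary richer in Ovgp1 held the higher value for all 5 genes of DSS_11.2 and for Col14a1 and Col23a1 of control_10.5, while Col6a3 was 117 in its left and 110 in its right ovary.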

How the results depend on the processing

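No setting called a collagen member for DSS against control or for the difference between sides. Of all genes, DSS against control called 0, but 10 without the ovaries over 5000 counts of Ovgp1, 6 with edgeR, 52 with DESeq2, 11 in left and 1 in right ovaries alone, 3 with the number before the point of the mouse label as a term, and 0 to 13 when 1 mouse was left out (13 without DSS_15.1, 1 without DSS_13.2 or control_10.5). The difference between sides called 1 gene with quantile normalization, 1 without the Ovgp1-high ovaries and 0 to 2 with 1 mouse left out (2 without DSS_11.2, 1 without DSS_13.2, control_10.5 or control_16.9). Members lower in DSS mice numbered 18 to 28 with 1 mouse left out. Left against right called 1488 genes, but 738 without the Ovgp1-high ovaries and, in fits added after the data were seen, 114 in DSS mice and 404 in control mice alone. Members higher in left ovaries numbered 3, 1 without the Ovgp1-high ovaries, 0 in DSS mice alone, 0 in control mice alone and 2 to 5 with 1 mouse left out. Members lower in left ovaries numbered 2, 1 without the Ovgp1-high ovaries, 0 in either treatment alone and 2 with any mouse left out. Without the replicate block, 2 were higher and 1 lower, since Col16a1 and Col4a4 did not pass (adjusted p = 0.0637 and 0.0985, limma); with the paired fit both did. The sign turned for DSS against control in Col8a2 (-0.11 without the Ovgp1-high ovaries, -0.28 in right ovaries, -0.041 without DSS_11.2), Plod1 (0.0029 in right ovaries) and Dcn (-0.041 without the Ovgp1-high ovaries, -0.0056 in right ovaries). For left against right it turned in Loxl2 (-0.0027 to -0.012 without DSS_10.4 or control_15.4) and Ddr1 (0.052 in DSS mice alone). For the difference between sides it turned in Adamts2 (0.13), Dcn (-0.047) and Ddr1 (-0.034) without the Ovgp1-high ovaries. Calls gained under an alternative for left against right were those of Itgb1, Ddr1 and Loxl3, given with their genes. The causes were not tested. The 10 sums, by class and over all members, moved by less than 1 SD with TMM factors and without the Ovgp1-high ovaries. Members under about 10 counts, such as Col7a1, rest on few reads per library.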
